A study of Arabidopsis thaliana with 4 samples.

Results

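The kinesin family of Arabidopsis thaliana was examined in endosperm, the nutritive tissue around the embryo, during its proliferative phase. The family was taken as 60 loci listed by their locus numbers, among them the phragmoplast kinesins PAKRP1 (AT4G14150), PAKRP1L (AT3G23670) and PAKRP2 (AT4G14330). Of these loci 35 had a named probe on the array, with 37 probes in all, and 29 probes for 28 loci had a value on all 4 arrays. These 28 genes, of 10509 named genes with such a probe, are the ones tested below, as 29 of the 19449 complete probes among 26912 on the array. For 6 loci values were present on some arrays only, AT3G51150 had a probe with no value, and the other 25 loci had no named probe and are not analysed here. The loci with no named probe include the best known members, such as HIK, TES, POK1, POK2, PAKRP1, FRA1 and ATK1 to ATK3. Of the 21 loci with a symbol of their own in the RefSeq gene table only 3 had a named probe, against 32 of the 39 known by locus number alone, so what follows describes mainly the less studied members.

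Kinesins are motor proteins that use ATP to walk along microtubules or to take them apart. In dividing plant cells they slide and focus the microtubules of the spindle, and they build and guide the phragmoplast, the array of microtubules on which the new cell plate forms. Other members act outside division, in the transport of wall material, the placing of organelles and the shaping of cortical microtubules. Early endosperm divides its nuclei without walls and builds walls later, from microtubule arrays that radiate from the nuclei.

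Endosperm at 4 days after pollination was cut from silique sections by laser capture microdissection, and 3 such samples were hybridised on 2-colour arrays. The labels name no ecotype, genotype or treatment. Since they leave unsaid whether each sample had its own plants, p-values cover no more than the spread among the 3 samples, which may be technical. All 3 were set against 1 reference RNA scraped from a slide after the cutting, which holds the other silique tissues and any endosperm that stayed behind, and the test leaves out the spread of that reference. Endosperm of replicate 1 carried Cy3, that of replicate 3 carried Cy5, and replicate 2 was hybridised with both. The arrays held values for 21829 to 23171 probes. Values are log2 ratios, in which 1 is a doubling, and they are given below in the order replicate 1, replicate 2 with Cy3, replicate 2 with Cy5 and replicate 3. The 2 arrays of replicate 2 were averaged before the mean and the main test of each probe, so that n = 3 for every SD given with a mean. Comparisons of replicate 1 with the other arrays, and the alternative fits by dye or of single arrays, use the arrays unaveraged.

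The sources used here state neither the numerator of the ratios nor the base of the logarithm, which is taken as 2. Endosperm is the likely numerator, since 9 measured endosperm markers had a median above 0 on each array (1.67, 1.89, 1.82 and 1.31). With the reference as numerator, higher and lower would trade places throughout. Of the 3 measured seed coat markers INO was lower (-0.73 ± 0.27, SD, n = 3, limma adjusted p = 0.00759) while BAN and DFR did not pass. ALC, the 1 measured marker of the silique wall, was lower at -2.40 ± 0.22 (limma adjusted p = 0.000144). None of the 5 embryo markers had a named probe, so the part of embryo RNA in the kinesin ratios was not tested. In such bulk samples a lower ratio can come from fewer cells of a type or from less RNA per cell, and these cannot be told apart.

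Most of the tested kinesins had higher ratios, read here as more transcript in endosperm than in the reference RNA. Of the 29 probes 18 were higher and 4 lower, and 7 did not pass (limma, Benjamini-Hochberg adjusted p under 0.05 over all 19449 probes). These are 62.1% higher and 13.8% lower, against 32% and 25.5% of all probes on the array, and 75.9% called either way against 57.5%. The kinesin loci were chosen with earlier results of these data known, so these shares describe the list and are no test of it. The median log2 ratio of the kinesin probes was 0.64 and that of all probes 0.11. Ratios over 2-fold higher were found for 12 of the 29 probes (41.4%), against 13% of all probes. Over 2-fold lower were 3 probes (10.3%), against 13.9% of all. More than 4-fold higher were 5 kinesin probes, for AT1G20060, AT1G55550, AT1G59540, AT5G23910 and AT3G20150, where 1.75% of all probes lay. The sign was positive on all 4 arrays for 19 kinesin probes, negative on all 4 for 5, and mixed for 5. Among all probes 40.4% were positive and 31.3% negative on every array.

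**Figure D1:**
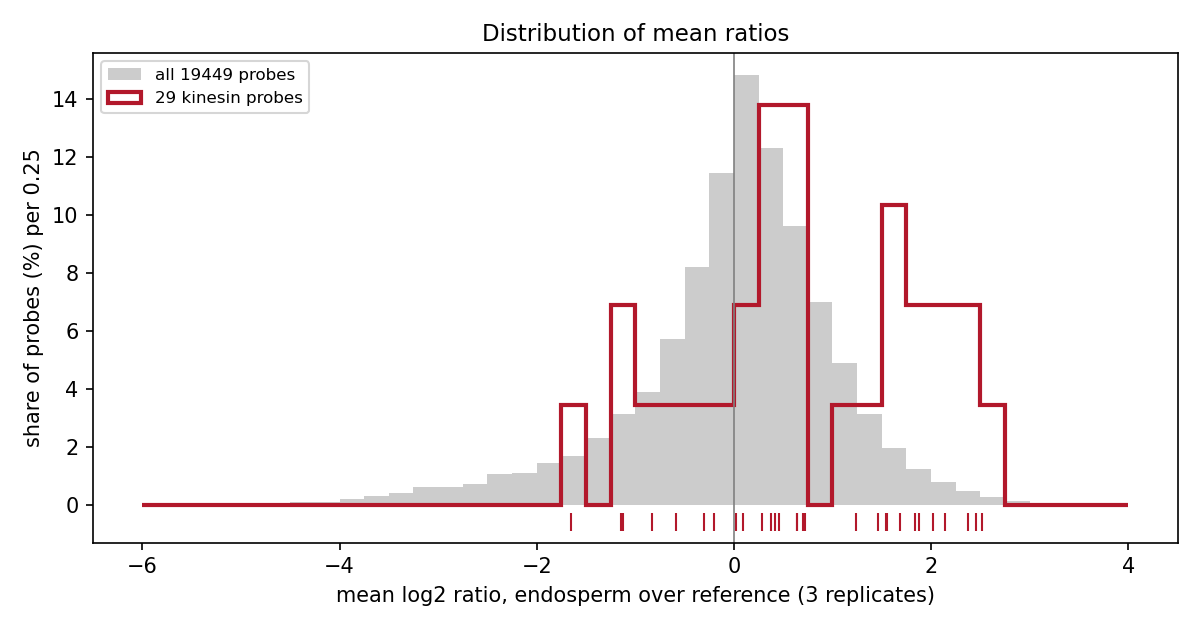
Share of probes (%) in bins of 0.25 of the mean log2 ratio of endosperm over reference (3 replicates), for all 19449 probes in grey and the 29 kinesin probes as a red outline, with each kinesin probe as a red tick. Of the kinesin ratios 12 lie between 1.24 and 2.52, and the others between -1.65 and 0.72.

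The 12 probes over 2-fold higher lay between 1.24 and 2.52, and the next one down, AT1G72250, was at 0.72. A gap of similar width lay at the lower end, between AT1G73860 at -1.65 and AT2G47500 at -1.14, so gaps define no groups here. Without replicate 1 the gap below the 12 was narrower, from AT1G63640 at 1.07 to 1 probe of AT2G21380 at 0.77. The 12 belong to kinesin-5, kinesin-6, kinesin-7, kinesin-10, kinesin-12 and kinesin-14, so no subfamily holds them all. The lower end of the family was nearer to the reference, with AT1G73860 lowest at -1.65.

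Kinesin-5 motors are bipolar tetramers that cross-link and slide apart antiparallel microtubules, and they keep the spindle in shape. AT2G28620, known as RSW7 and required for a normal spindle, had log2 ratios of 2.06, 1.06, 1.03 and 1.28. Its mean was 1.46 ± 0.53 (SD, n = 3), or 2.75-fold higher in endosperm (limma adjusted p = 0.00222). AT2G36200, a second kinesin-5 gene, was at 2.72, 1.62, 1.44 and 0.83, with a mean of 1.69 ± 0.95 (3.23-fold, limma adjusted p = 0.00773). All 4 arrays were above 0 for both genes, but their replicates lay far apart, with replicate 1 highest. AT3G45850 did not follow them: it was at 0.01, -0.10, -0.20 and -1.63. Its mean of -0.59 ± 0.90 did not pass (limma adjusted p = 0.173, 95% interval -1.40 to 0.22) and rests on replicate 3, without which it was -0.07. The intervals of AT2G28620 (0.93 to 1.99) and AT2G36200 (0.84 to 2.54) both lie above that of AT3G45850. The last member, AT2G37420, had no value in replicate 1 and was at 0.26, -0.08 and 0.23 on the other arrays.

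The highest ratio of the family belonged to AT1G20060, the kinesin-6 member, a subfamily that in animals works in the central spindle and in cytokinesis. It was at 2.96, 2.41, 2.33 and 2.22, with a mean of 2.52 ± 0.39 or 5.72-fold (limma adjusted p = 0.000209). Among all 19449 probes its mean ranked as number 87 from the top.

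Both kinesin-10 genes were higher. PAKRP2, which moves along phragmoplast microtubules and is thought to carry vesicles to the cell plate, was at 2.45, 1.52, 1.60 and 1.49. Its other arrays lie close together and replicate 1 is above them (limma adjusted p = 0.000982). AT5G23910, its relative, was at 2.18, 1.85, 2.01 and 2.30, with a mean of 2.14 ± 0.19 (4.40-fold, limma adjusted p = 0.000159). Its 4 arrays differed little, and its mean ranked as number 244 of all probes.

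Kinesin-12 motors sit where the plus ends of microtubules meet in the middle of the phragmoplast, or mark the plane of division at the cell cortex. All 3 measured members of 6 were higher. AT3G20150 was at 2.49, 1.33, 1.53 and 2.14, with a mean of 2.02 ± 0.54 (4.06-fold, limma adjusted p = 0.000732). PAKRP1L, which with its close relative PAKRP1 organises phragmoplast microtubules in the dividing male gametophyte, was at 1.84, 1.33, 1.0 and 1.63. AT3G44050 was at 0.35, 0.50, 0.43 and 0.45. Its mean of 0.42 ± 0.06 (1.34-fold, limma adjusted p = 0.0241) was the smallest difference called in the family, and the interval of 0.13 to 0.71 lies below those of AT3G20150 (1.48 to 2.56) and PAKRP1L (1.14 to 1.95). AT3G44050 did not pass without replicate 2 (limma adjusted p = 0.149), without replicate 3 (0.106) or after centring every array on its median (0.0588). How far the probe of PAKRP1L takes up transcript of PAKRP1 was not measured.

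**Figure D2:**
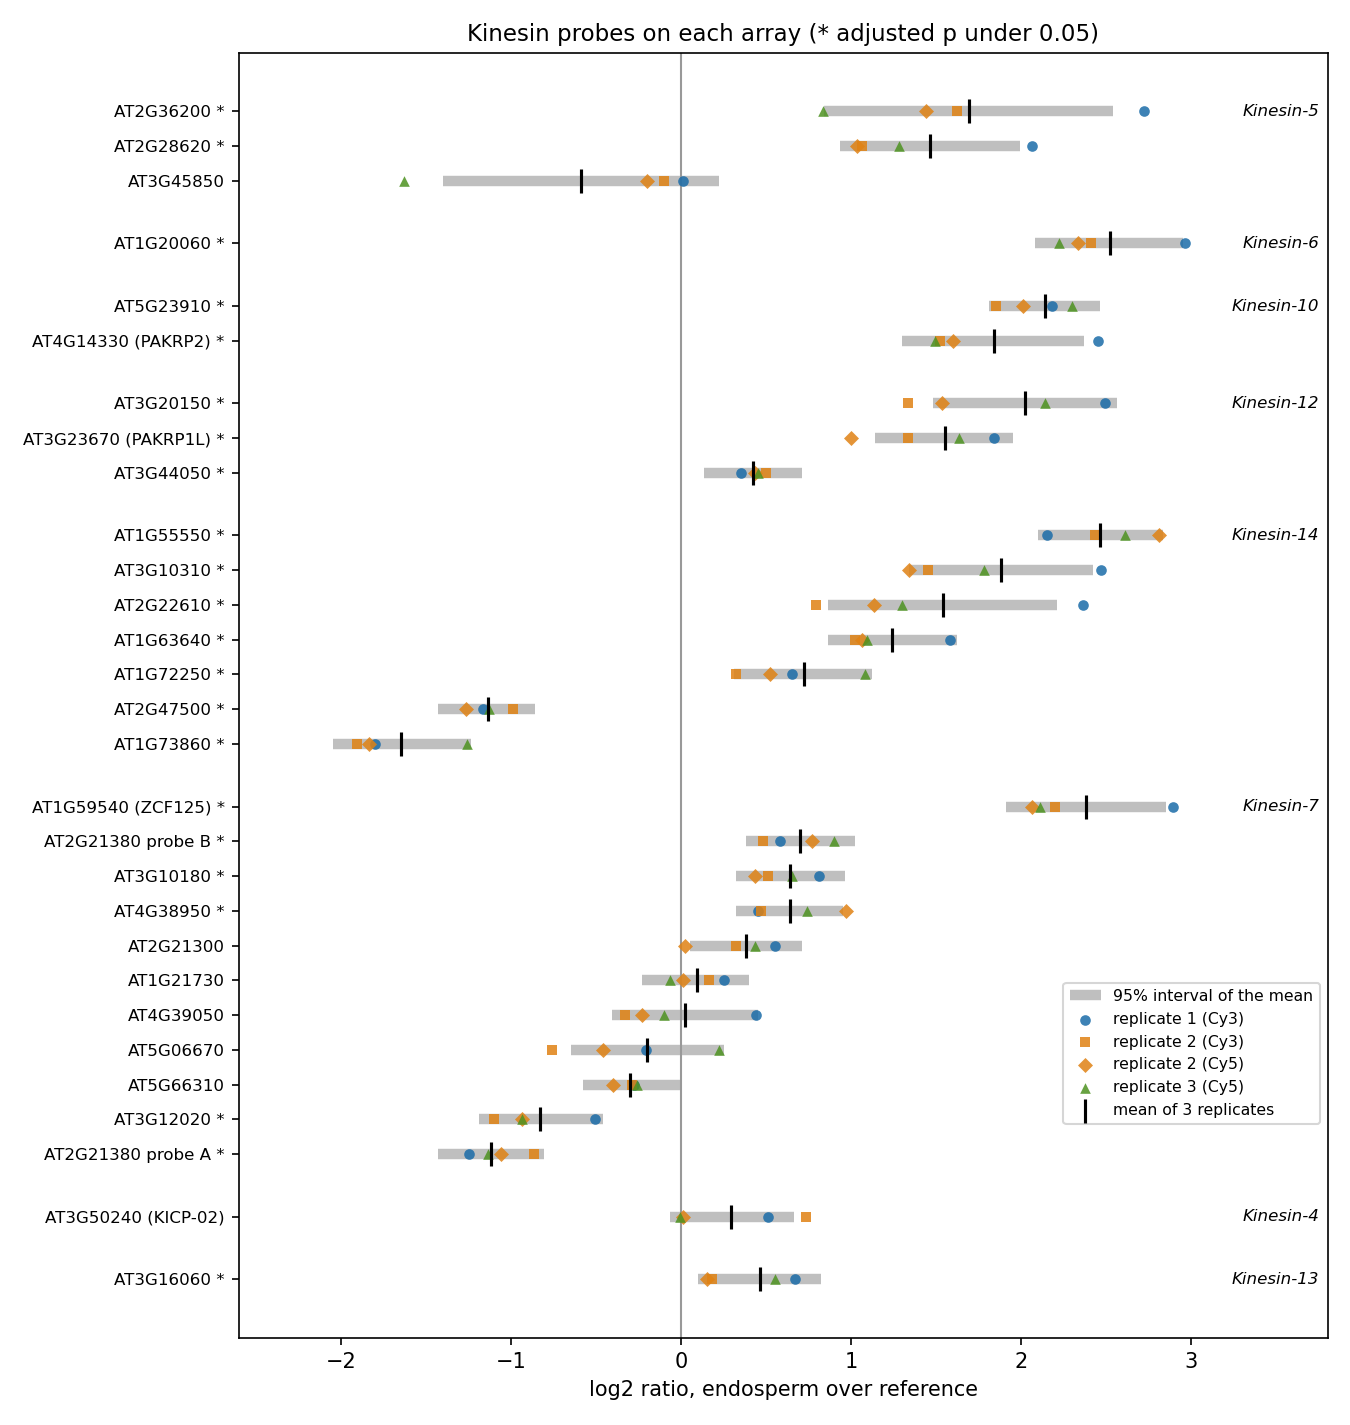
Log2 ratio of endosperm over reference for the 29 kinesin probes, grouped by subfamily: blue circles are replicate 1, orange squares and diamonds replicate 2 with Cy3 and Cy5, green triangles replicate 3. Black bars are means of 3 replicates, grey bars their 95% limma intervals, and asterisks mark an adjusted p under 0.05. All arrays of the kinesin-6 and kinesin-10 genes are at 1.49 or above, whereas kinesin-14 and kinesin-7 hold genes on both sides of 0.

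Kinesin-14, the largest subfamily in plants, holds mainly motors that walk to the minus ends of microtubules. All 7 of its measured genes were called, 5 higher and 2 lower. AT1G55550 was at 2.15, 2.43, 2.81 and 2.61, with a mean of 2.46 ± 0.27 (5.50-fold, limma adjusted p = 0.000154). It was the gene with the smallest adjusted p of the family, and replicate 1 was here the lowest array. The malectin domain kinesins AT2G22610 and AT1G72250, also known as MDKIN2 and MDKIN1, were both higher. AT2G22610 was at 2.36, 0.79, 1.13 and 1.30 (mean 1.54 ± 0.73, limma adjusted p = 0.00469), and AT1G72250 was at 0.65, 0.32, 0.52 and 1.08 (mean 0.72 ± 0.34, limma adjusted p = 0.0118). Their intervals, 0.86 to 2.21 and 0.31 to 1.12, overlap. AT1G72250 did not pass on the Cy3 arrays alone (0.48, limma adjusted p = 0.0572).

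Genes that belong to the plant kinesins with a calponin homology domain, which can bind actin as well as microtubules, ran in opposite directions. AT3G10310 was at 2.47, 1.45, 1.34 and 1.78, a mean of 1.88 ± 0.54 (3.68-fold, limma adjusted p = 0.000929). AT1G63640 was at 1.58, 1.02, 1.06 and 1.09, a mean of 1.24 ± 0.30 (2.36-fold, limma adjusted p = 0.00119). In contrast, AT2G47500 was at -1.17, -0.99, -1.27 and -1.13, a mean of -1.14 ± 0.02 (2.21-fold lower, limma adjusted p = 0.000602). The arrays of AT2G47500 all lie below 0 and those of the other two genes above 1. AT1G09170 and AT5G41310 of the same kind were measured with Cy5 only, at -0.17 and -0.12 (replicates 2 and 3) and at 0.48 (replicate 2). The lowest kinesin of all was AT1G73860, a further kinesin-14 gene, at -1.80, -1.91, -1.84 and -1.26. Its mean was -1.65 ± 0.34, or 3.13-fold below the reference (limma adjusted p = 0.000553).

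Kinesin-7 is the subfamily of animal CENP-E, which links chromosomes to the spindle, and of HIK and TES, which start the kinase cascade that expands the phragmoplast. Its 11 probes with values on all 4 arrays, for 10 genes, had a median of 0.09, close to the 0.11 of all probes. Of these probes 4 were higher and 2 lower (36.4% and 18.2%, near the 32% and 25.5% of all probes). AT1G59540 (ZCF125) stood apart at 2.89, 2.20, 2.06 and 2.11, a mean of 2.38 ± 0.44 (5.20-fold, limma adjusted p = 0.000292). Every other kinesin-7 probe had all its arrays below 1. AT3G10180 was at 0.81, 0.51, 0.43 and 0.65 (mean 0.64 ± 0.17, limma adjusted p = 0.00745), whereas a second probe of the same gene had values in replicates 1 and 3 only, at -0.26 and 0.09. AT4G38950 was at 0.45, 0.47, 0.97 and 0.74 (mean 0.64 ± 0.16, limma adjusted p = 0.00732). It did not pass without replicate 2 (limma adjusted p = 0.0585) or on the Cy3 arrays alone (0.0547).

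Lower among the kinesin-7 genes was AT3G12020, at -0.51, -1.10, -0.94 and -0.94 (mean -0.83 ± 0.27, 1.77-fold lower, limma adjusted p = 0.00484). For AT2G21380 the 2 probes disagreed. One, called A here, was at -1.25, -0.87, -1.06 and -1.14 (mean -1.12 ± 0.15, limma adjusted p = 0.00084), and the other, called B, was at 0.58, 0.48, 0.77 and 0.90 (mean 0.70 ± 0.17, limma adjusted p = 0.0053). Each probe was steady over the arrays, and the 2 do not overlap. Averaged, the gene was at -0.21 and did not pass (limma adjusted p = 0.189), so no direction is given for it. Counted by gene, with probes averaged, 17 of 28 genes were higher and 3 lower, against 34% and 23.7% of 10509 genes.

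The other kinesin-7 genes did not pass. AT1G21730 and AT4G39050 encode MKRP1 and MKRP2, kinesin-related proteins with a mitochondrial targeting sequence. They were at 0.25, 0.16, 0.01 and -0.07 and at 0.44, -0.33, -0.23 and -0.10, with means of 0.09 and 0.02. Both intervals, -0.23 to 0.40 and -0.41 to 0.45, leave out any difference as large as 1.5-fold. AT2G21300 was at 0.55, 0.32, 0.02 and 0.43 and just missed the threshold (limma adjusted p = 0.0512). It passed with the dye as a covariate (limma adjusted p = 0.0438), with the arrays as independent samples (0.0451) and with arrays scaled to the same SD (0.0441). The first 2 of these fits count the arrays of replicate 2 as separate samples. AT2G21300 did not pass when any 1 replicate was left out (limma adjusted p = 0.122, 0.0936 and 0.167). Nor did it with centred arrays (0.108) or with replicate 2 as a random block (0.0575). AT5G66310 was at -0.28, -0.29, -0.40 and -0.26 and also missed it (limma adjusted p = 0.0722), though it passed as lower once arrays were centred on their medians (-0.39, limma adjusted p = 0.0331). It also passed with replicate 2 as a random block (limma adjusted p = 0.0447), with a dye covariate (0.0269) and with the arrays as independent samples (0.0223). The last 2 of these fits again count the arrays of replicate 2 as separate samples. AT5G66310 did not pass when any 1 replicate was left out (limma adjusted p = 0.093, 0.304 and 0.199). Nor did it on the Cy3 arrays alone (0.193), on the Cy5 arrays alone (0.0823) or with arrays scaled to the same SD (0.0637). AT5G06670 had both signs, at -0.21, -0.76, -0.46 and 0.22. AT5G42490 lacked a value on the Cy3 array of replicate 2 and was otherwise at -0.17, 0.05 and -0.0013, and it did not pass when probes with a missing array were added to the test (limma adjusted p = 0.793).

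Kinesin-13, kinesin-4 and kinesin-8 were each represented by 1 or 2 genes. The kinesin-13 gene AT3G16060, of a subfamily that takes microtubules apart at their ends, was at 0.67, 0.18, 0.15 and 0.55. Its mean of 0.46 ± 0.26 passed (1.37-fold, limma adjusted p = 0.0384). The call was lost without any 1 of the 3 replicates (limma adjusted p = 0.0998, 0.0503 and 0.131) and with centred arrays (0.0731). The kinesin-4 gene AT3G50240 (KICP-02), related to FRA1, which acts in the deposition of wall material, was at 0.51 and 0.73 with Cy3 and at 0.01 and -0.01 with Cy5. It did not pass (mean 0.29 ± 0.27, limma adjusted p = 0.138), but did on the Cy3 arrays alone (0.62, limma adjusted p = 0.021) and with the dye as a covariate (0.31, limma adjusted p = 0.0298). The covariate fit counts the arrays of replicate 2 as separate samples. AT3G50240 did not pass when any 1 replicate was left out (limma adjusted p = 0.347, 0.397 and 0.0851). Nor did it on the Cy5 arrays alone (0.00081, limma adjusted p = 0.997), with centred arrays (0.279) or with replicate 2 as a random block (0.231). Of kinesin-8, AT1G18550 was at 0.33, -0.14 and 0.32 with no value in replicate 1. AT3G49650 was at 0.72, -0.07 and 0.03 with no value on the Cy3 array of replicate 2, and did not pass with probes with a missing array added (0.23, limma adjusted p = 0.342).

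Replicate 1 gave the highest ratios for many of the kinesins, though not by the median of the family. The medians of all 29 kinesin probes were 0.65, 0.50, 0.52 and 0.74 on the 4 arrays, so that replicate 3 was highest. Replicate 1 was the highest of the 4 arrays for 17 of the 29 kinesin probes (58.6%), against 31.8% of all probes. Among the 12 kinesins over 2-fold higher it was the highest for 10, all but AT1G55550 and AT5G23910, against 41.1% of all probes over 2-fold higher. The medians of these 12 were 2.41, 1.49, 1.49 and 1.70 on the 4 arrays, where all probes over 2-fold higher had 1.5, 1.32, 1.29 and 1.40. The widest gap was that of AT2G36200, 1.42 above the mean of the other 3 arrays, followed by AT2G22610 at 1.29. The array of replicate 1 also had the widest spread over all probes, with an SD of 1.19 against 1.01 to 1.08. The medians of the endosperm markers were not highest there, and those of the seed coat markers were -0.09, -0.42, -0.17 and -0.55. The part of these in the kinesin ratios of replicate 1 was not tested. Without replicate 1, 17 kinesin probes were higher and 4 lower, against 31.7% and 25% of all probes, and the kinesin median was 0.73. With each array scaled to the same SD, 19 were higher and 4 lower, against 33.2% and 26.2% of all probes.

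**Figure D3:**
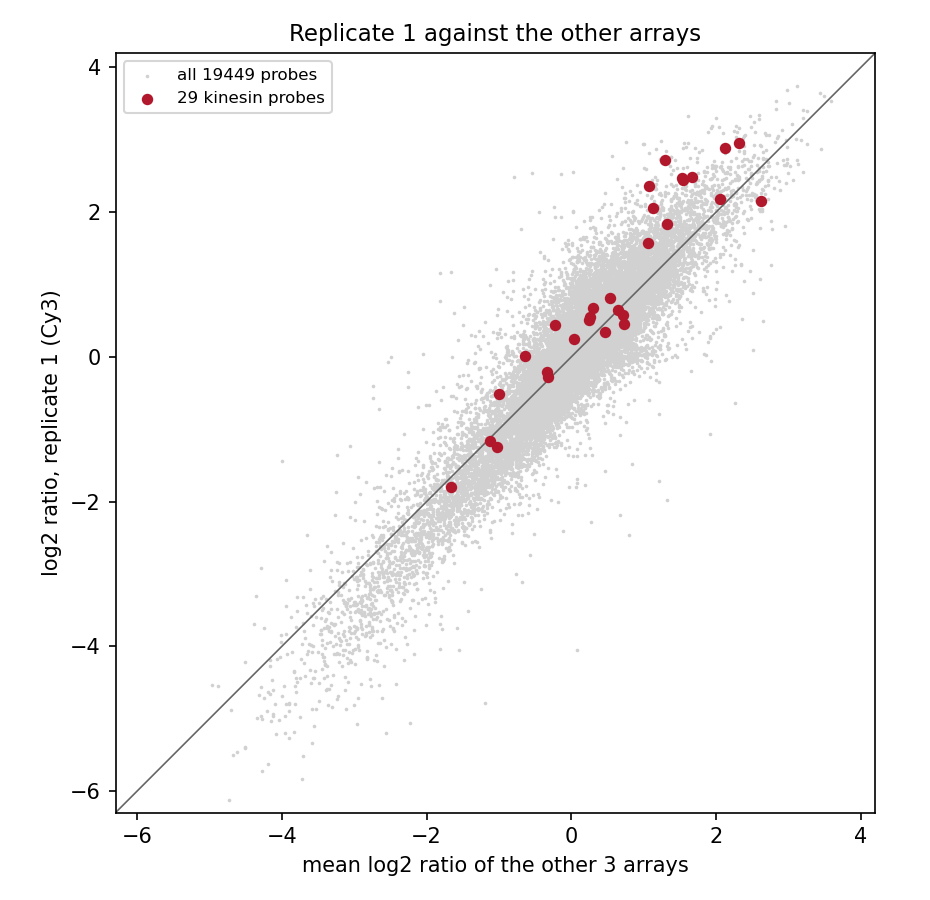
Log2 ratio on the array of replicate 1 (vertical axis) against the mean log2 ratio of the other 3 arrays (horizontal axis) for all 19449 probes in grey and the 29 kinesin probes in red, with the line of equal values. Most kinesins with high ratios lie above the line, while AT1G55550, at 2.15 on replicate 1, lies below it.

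The kinesin ratios of replicate 2 were compared between its dyes. Its Cy5 array minus its Cy3 array gave a median of -0.03 over the kinesin probes and -0.02 over all probes, and 13 of the 29 kinesins were higher with Cy5. Single genes moved more, from -0.73 for AT3G50240 to 0.50 for AT4G38950, against an SD of 0.42 over all probes. A dye term fitted on the 4 arrays passed for 0 of the 29 kinesin probes, and for 0 of all 19449 probes (limma). At an unadjusted threshold of 0.05 there were 2, AT3G50240 and AT2G36200, and 9.4% of all probes. With replicate 2 as a random block these kinesin counts were again 0 and 2, while over all probes 31 passed and 12.8% lay under the unadjusted threshold. Replicate 1 had Cy3 only and replicate 3 Cy5 only, so the dye term also takes up differences between these replicates. AT2G36200 was at 1.62 and 1.44 on the arrays of replicate 2, but at 2.72 in replicate 1 and 0.83 in replicate 3.

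**Figure D4:**
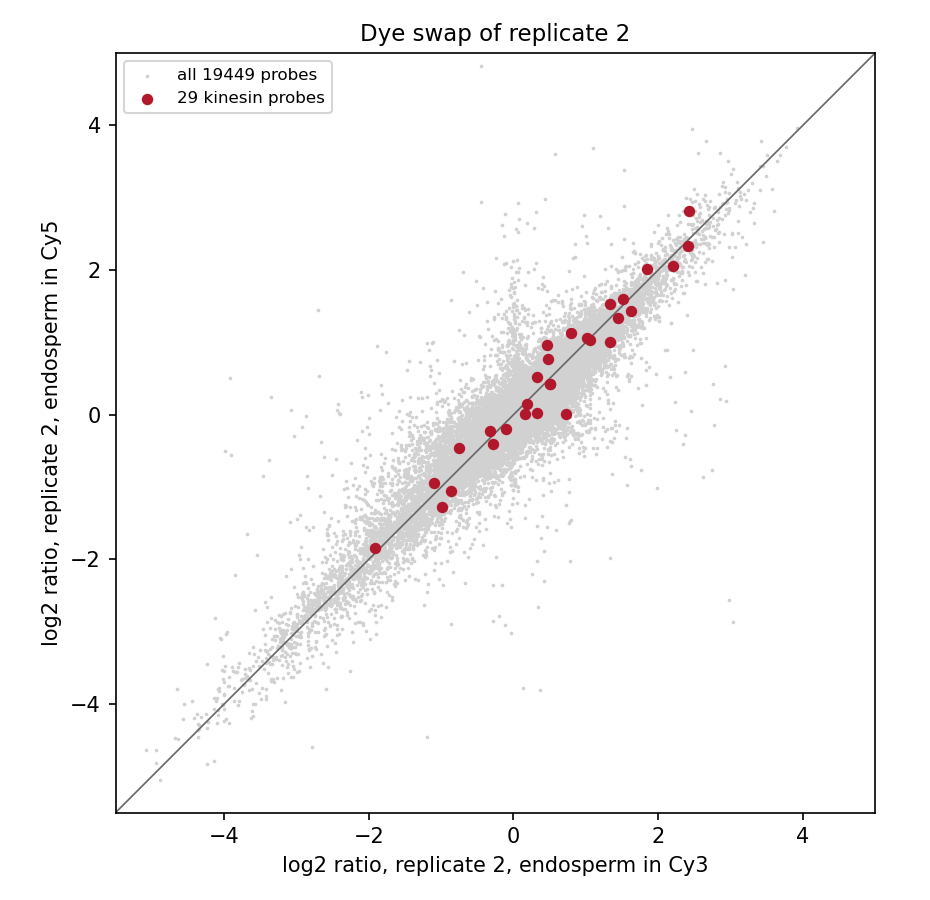
The 2 arrays of replicate 2, with endosperm labelled with Cy3 (horizontal axis) and with Cy5 (vertical axis), as log2 ratios for all 19449 probes in grey and the 29 kinesin probes in red, with the line of equal values. The kinesins follow the line, and AT3G50240, at 0.73 and 0.01, lies furthest from it.

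Proteins that work with the kinesins in division were thinly covered, with 9 complete probes for 76 listed loci, and none of the 13 mitotic cyclins and CDKB kinases or the 7 plus end and spindle proteins among these had a named probe. Of these 5 were higher and 2 lower (55.6% and 22.2%, against 32% and 25.5% of all probes), their median was 0.40, and the other 2 missed the threshold. The partner lists too were chosen with earlier results of these data known. Aurora kinases phosphorylate spindle and chromosome proteins. AUR3 (AT2G45490) was at 2.27, 1.63, 1.74 and 1.84, a mean of 1.93 ± 0.30 (limma adjusted p = 0.000295), and AUR1 (AT4G32830) was at 0.90, 1.0, 1.10 and 0.82 (limma adjusted p = 0.00153). AUR2 (AT2G25880) was at 1.07 in replicate 1 and between -0.05 and 0.08 on the other arrays, and did not pass (limma adjusted p = 0.248). Replicate 1 was thus the highest array for AUR3 and AUR2, as for many kinesins, but not for AUR1.

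Of 9 loci listed around the kinase cascade that HIK and TES switch on, only MPK13 (AT1G07880) had a named probe. It was at 0.79, 0.09, 0.62 and 0.26 (mean 0.47 ± 0.28, limma adjusted p = 0.0391). Whether MPK13 acts in that cascade here was not tested. KEU (AT1G12360), a partner of the syntaxin that fuses vesicles into the cell plate, was at 0.74, 0.47, 0.27 and 0.43 (limma adjusted p = 0.0197). Of the proteins of the division plane, AT3G55005, a TON1 gene, was higher at 0.40 ± 0.16 (limma adjusted p = 0.0383). AT5G12150, which encodes the GTPase activating protein PHGAP1, was lower at -0.44 ± 0.28 (limma adjusted p = 0.046). MAP65 proteins bundle antiparallel microtubules, several of them in spindle and phragmoplast. The 1 measured gene of that family was lower: AT2G01910, or MAP65-6, whose protein was found with mitochondria, was at -1.08, -0.83, -0.85 and -0.92 (mean -0.95 ± 0.12, limma adjusted p = 0.00139). GCP2 (AT5G17410), of the complex that starts new microtubules, did not pass (0.21 ± 0.10, limma adjusted p = 0.185). The gamma-tubulin gene AT3G61650 lacked a value in replicate 1 and was at 1.08, 1.16 and 1.18 on the other arrays. Without replicate 2 only 2 of the 9 were higher and 1 lower, against 23.8% and 19.9% of all probes. Without replicate 1 the counts were 3 and 1, against 31.7% and 25% of all probes. Both pairs of counts are near these shares.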

How the data were processed

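Per the labels' protocols, the RNA of both channels went through 2 rounds of amplification by in vitro transcription, which can shift transcript proportions, and was then coupled to Cy dyes. The deposited table of log2 ratios holds 1 value per probe and array. Not given in the sources used here are the scanner, the background correction and normalization, why some cells are empty, the log base and the numerator. The table has no intensities, so dim spots could not be left out, and precision is limited by the number of arrays. Arrays of both dye orientations correlated above 0 (Pearson's r 0.87 to 0.92 over 19449 probes), so their ratios already run one way.

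The platform's gene table named 14539 probes, each with 1 gene, of which 14485 were matched by gene identifier to the RefSeq gene table of TAIR10.1, used for names only. All probes complete on 4 arrays were tested in R 4.3.3 with limma 3.58.1 (an intercept model by lmFit and eBayes, two-sided, Benjamini-Hochberg) after the 2 arrays of replicate 2 were averaged, with 2 residual degrees of freedom per probe. Intervals are limma's at 95% for each probe alone. The script was tested on simulated data. Every measured kinesin and every called partner gene is named, and partners that did not pass were named as well since they were 2. The kinesin loci, subfamilies, partner lists and markers were chosen with earlier results of these data known, and subfamilies and roles come from general knowledge. The alternatives tried are given in the closing section.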

Additional observations from a re-analysis of the deposited data

Results flagged for a closer look

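Of the 4 arrays of a probe 2 carry the same RNA. In 4 of the 29 kinesin probes (13.8%) 1 array lay far from the other 3, against 6.47% of all probes. Chance gives about 1 in 20 such gaps for independent normal values, which these arrays are not, so that rate does not apply here. AT3G45850 was at -1.63 in replicate 3, with the other arrays between -0.20 and 0.01. AT1G59540 was at 2.89 in replicate 1, with the others between 2.06 and 2.20. PAKRP2 (AT4G14330) was at 2.45 in replicate 1, with the others between 1.49 and 1.60. AT1G63640 was at 1.58 in replicate 1, with the others between 1.02 and 1.09. Without replicate 1 the last 3 were at 2.12, 1.53 and 1.07 and still passed (limma adjusted p = 0.000355, 0.000692 and 0.00181).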

How the results depend on the processing

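Without 1 replicate the 18 kinesin probes higher and 4 lower became 15 to 17 and 4. Of all probes 23.8% to 31.7% were then higher and 19.9% to 25% lower. With the other treatments of dye, of replicate 2 and of centring the kinesin counts were 15 to 20 and 4 to 5. The shares of all probes were then 27.8% to 37.7% and 24.1% to 29%. Against a fold change of 1.5 the kinesin counts were 12 and 3, beside 12.2% and 13% of all probes. With the reference as numerator the kinesin counts are 4 higher and 18 lower. The kinesin median stayed between 0.53 and 0.80, the latter on the Cy5 arrays alone, with 0.59 to 0.73 without 1 replicate. Of all probes, 6231 higher and 4957 lower became 2364 and 2521 against a fold change of 1.5, and 3570 and 2486 of 10509 genes with probes of 1 gene averaged. Centring each array on its median turned the excess of all probes, to 5415 higher and 5552 lower. It moved the median of all probes from 0.11 to 0.02, and left 16 kinesins higher and 5 lower. The 9 partner genes, 5 higher and 2 lower, were 2 to 4 and 1 to 2 without 1 replicate. They were 3 higher on the Cy3 arrays alone and with centring, where 30.1% and 27.8% of all probes were higher. On the Cy5 arrays alone the partner counts were 2 and 1, beside 30.2% and 24.1% of all probes. Against a fold change of 1.5 they were 1 and 0, beside the 12.2% and 13% given above. Signs turned for 3 ratios that did not pass. AT1G21730 was at -0.03 on the Cy5 arrays alone and -0.0037 with centring. AT4G39050 ran from -0.19 to 0.17 without 1 replicate, and was at -0.17 on the Cy5 arrays alone, -0.07 with centring, -0.06 with the dye as a covariate or with the 4 arrays as independent samples, and -0.01 with replicate 2 as a random block. AT5G06670 ran from -0.41 to 0.01 without 1 replicate. None of these turned values passed. Averaged with the opposing probe A, probe B of AT2G21380 gave -0.21 for the gene. The causes were not tested. The random block used a correlation of 0.461 taken from moments, since the usual estimate could not be fitted. Scaling the arrays to 1 SD was chosen after seeing the data. No paired analysis was possible because there is 1 group of samples. Signal over background is unknown, so dim probes cannot be told from bright ones.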
